A study of Rattus norvegicus with 8 samples.

Results

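The 31 genes described here encode the proteins that carry fatty acids into liver mitochondria and peroxisomes, oxidize them, and turn the product into ketone bodies, together with fatty acid handling proteins, the nuclear receptor PPAR alpha and further genes that this receptor is known to switch on. They were listed by gene name, with earlier results of these data known, and each gene was read on 1 probe set, the one with the highest mean over the 8 arrays among the probe sets that the platform annotation gives a single gene symbol. All 31 had such a probe set, of 14217 genes that did. Total RNA from livers of male Sprague-Dawley rats was hybridized to Affymetrix rat expression arrays, with 2 arrays in each of 4 groups. The vehicle group was gavaged with vehicle for 3 days and injected with saline, the Dex group received the gavage vehicle and 1 injection of dexamethasone (1.5 mg/kg, intramuscular) on the third day, the GW3965 group was gavaged with GW3965 (50 mg/kg) for 3 days and injected with saline, and the Dex+GW3965 group received both compounds. Livers were taken 24 h after the injection, and the age of the rats is not stated in the labels.

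Dexamethasone is a man-made steroid that acts through the glucocorticoid receptor, and GW3965 is a synthetic agonist of the liver X receptors, the nuclear receptors for oxidized cholesterol. The comparison asks how the 2 compounds, alone and together, moved the transcripts of fat burning in the liver. The signal is a log2 value, so a difference of 1 is a doubling, and it orders arrays for 1 gene but not genes against each other. In the labels the arrays of a group have the letters a and b after a shared liver number, while the methods speak of 2 animals a group, so p-values measure the spread between these 2 arrays, which may be technical. The median difference between the 2 arrays of a group over the members was 0.04, and the largest was 0.37 (Ppara in vehicle livers). A gene was called when its adjusted p in the limma fit over 16253 probe sets was under 0.05. In whole liver, fewer cells of a type and less RNA per cell cannot be told apart.

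As background, long chain fatty acids are joined to coenzyme A, passed to carnitine by carnitine palmitoyltransferase 1, carried across the inner mitochondrial membrane and shortened in a repeated cycle of dehydrogenation, hydration, dehydrogenation and thiolysis. Very long and branched chains start in peroxisomes, and a side route in the endoplasmic reticulum oxidizes the far (omega) end of the chain. In the fasted liver the acetyl-CoA formed is made into ketone bodies for other organs, and PPAR alpha, which senses fatty acids, is the best known activator of these genes.

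Promoter sequences of 26 of the 31 members were found in RefSeq (build GRCr8), each covering 250 bases before to 50 after the annotated start. Those of 6 members whose transcripts moved in different ways are shown 5′ to 3′ up to the start, because Hadha and Hadhb share theirs and because the other 5 hold letters known from nuclear receptor sites or the TATA box. In the Hadha sequence, capitals mark the 200 bases that also lie in the window of Hadhb, whose start lies 301 bases away on the other strand. In the Fabp1 sequence capitals mark a direct repeat of AGGNCA with 1 base between the copies, the kind of site that PPAR alpha binds, read on the opposite strand, and TATAAA. In Eci1 (opposite strand), Cyp4a3 and Acadvl (shown strand) they mark the nuclear receptor half-site AGGTCA, and in Fgf21 TATAAA.
Hadha (chr6:31907551-31907800, plus strand, trifunctional protein, alpha subunit): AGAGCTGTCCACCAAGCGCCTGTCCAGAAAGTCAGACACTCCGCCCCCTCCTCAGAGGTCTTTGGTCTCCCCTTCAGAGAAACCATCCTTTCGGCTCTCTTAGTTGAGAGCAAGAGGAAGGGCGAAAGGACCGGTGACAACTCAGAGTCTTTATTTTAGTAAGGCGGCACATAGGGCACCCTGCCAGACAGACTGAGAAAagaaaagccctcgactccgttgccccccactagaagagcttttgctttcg
Fabp1 (chr4:104749090-104749339, plus strand, liver fatty acid binding protein): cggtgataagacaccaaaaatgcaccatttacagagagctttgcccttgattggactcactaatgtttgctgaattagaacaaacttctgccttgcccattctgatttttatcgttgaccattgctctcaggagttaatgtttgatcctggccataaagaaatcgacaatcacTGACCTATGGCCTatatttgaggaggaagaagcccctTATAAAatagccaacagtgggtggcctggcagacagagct
Eci1 (chr10:13961000-13961249, plus strand, mitochondrial enoyl-CoA isomerase): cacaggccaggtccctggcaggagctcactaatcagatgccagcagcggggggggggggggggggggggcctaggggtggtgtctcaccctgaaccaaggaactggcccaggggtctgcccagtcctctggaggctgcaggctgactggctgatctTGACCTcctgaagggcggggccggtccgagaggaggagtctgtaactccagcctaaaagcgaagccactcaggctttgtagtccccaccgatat
Cyp4a3 (chr5:134352237-134352486, minus strand, fatty acid omega hydroxylase): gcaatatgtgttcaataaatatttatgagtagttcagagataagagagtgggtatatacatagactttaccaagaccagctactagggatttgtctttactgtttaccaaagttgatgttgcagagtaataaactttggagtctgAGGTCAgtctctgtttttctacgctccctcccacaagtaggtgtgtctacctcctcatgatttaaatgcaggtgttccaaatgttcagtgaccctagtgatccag
Acadvl (chr10:55236706-55236955, minus strand, very long chain acyl-CoA dehydrogenase): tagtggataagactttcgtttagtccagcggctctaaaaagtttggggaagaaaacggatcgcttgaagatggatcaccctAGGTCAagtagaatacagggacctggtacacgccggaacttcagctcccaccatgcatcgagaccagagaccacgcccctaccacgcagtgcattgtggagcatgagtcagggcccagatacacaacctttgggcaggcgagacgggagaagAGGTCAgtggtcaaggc
Fgf21 (chr1:105221377-105221626, minus strand, fibroblast growth factor 21): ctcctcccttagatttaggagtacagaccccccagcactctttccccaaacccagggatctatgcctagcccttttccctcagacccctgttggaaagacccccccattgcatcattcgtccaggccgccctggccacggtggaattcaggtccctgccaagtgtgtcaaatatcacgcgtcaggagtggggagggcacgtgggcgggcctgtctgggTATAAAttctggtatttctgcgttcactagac

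The half-site AGGTCA was in 6 of the 26 windows on either strand (Acadvl, Cyp4a3, Eci1, Eci2, Fabp1 and Hadhb), against 16.2% of 33469 rat promoter windows of that length. The repeat of AGGNCA with 1 spacer base was in 1, that of Fabp1 from base -77 to -65 before the start, where it overlaps the half-site of the same gene, against 0.415% of all windows. Neither the repeat of AGGNCA with 4 spacer bases, as liver X receptors bind (0.179% of all windows), nor GNACA followed after 3 bases by TGTNC, as the glucocorticoid receptor binds (0.439%), was in any of the 26. TATAAA stood in 3 windows (Cd36, Fabp1 and Fgf21, against 14.2% of all) and CCAAT in 8 (against 37.5%). These are matches of letters in short windows and say nothing of binding. The starts of Fabp1 and of other genes with several transcripts can differ from the one in the table.

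Known target genes of both compounds had changed in these livers. Fkbp5, a glucocorticoid receptor target, read 6.56 and 6.62 in vehicle livers, 9.83 and 9.71 in Dex, 6.27 and 6.25 in GW3965 and 8.38 and 8.36 in Dex+GW3965 livers. Tat, another target, was 1.04 higher in log2 in Dex livers and 0.88 lower in Dex+GW3965 livers than in vehicle. With GW3965 alone Tat read 10.48 and 10.54, below the 11.02 and 11.03 of vehicle. Cyp7a1, the bile acid enzyme, fell by 3.62 with GW3965, and whether this fall came through the liver X receptors was not tested. Abca1, a cholesterol exporter and liver X receptor target, was 1.53 higher with GW3965, 2.09 higher with Dex and 1.46 higher with both. Its rise was thus not particular to GW3965. Hepatocyte markers (7 with a probe set) had a mean log2 signal of 14.04 to 14.12 on every array, with 1 called higher and 3 lower in Dex, 1 lower in GW3965, and 2 higher and 3 lower in Dex+GW3965 livers. The mean of 10 Kupffer cell markers was 8.65 to 8.66 in vehicle, 8.37 in Dex, 9.0 to 9.03 in GW3965 and 8.44 to 8.47 in Dex+GW3965 livers, with 1 called higher and 6 lower in Dex, 6 higher in GW3965, and 1 higher and 6 lower in Dex+GW3965 livers against vehicle. The mean of 12 stellate cell markers was 8.01 to 8.02, 7.17 to 7.27, 7.6 to 7.62 and 7.34 to 7.36 in the same order of groups, with 10, 8 and 9 called lower and 1 called higher in Dex livers. Of 8 sinusoidal endothelial markers, with means of 8.34 to 8.38, 8.1 to 8.13, 8.3 to 8.31 and 7.91 to 8.03, 4 were called lower in Dex, 2 in GW3965 and 5 in Dex+GW3965 livers, and 1 was called higher in each. The mean of 3 erythrocyte markers was 9.55 to 9.67, 9.25 to 9.33, 9.77 to 9.84 and 8.75 to 8.76. Both neutrophil markers tested were called lower in every treated group, with S100a8 not above background in any of them and S100a9 at 7.23 in vehicle and 5.35, 5.02 and 5.91 in Dex, GW3965 and Dex+GW3965 livers. Of 3 cholangiocyte markers tested, 1 was called lower in Dex, 1 higher and 2 lower in GW3965, and 2 higher and 1 lower in Dex+GW3965 livers, and of 2 markers of T, NK and B cells 1 was called lower in each. Of 5 adipocyte markers, adiponectin, leptin, perilipin 1 and Slc2a4 were not above background in any group. The other, Cfd, had means of 7.52 in vehicle, 7.02 in Dex, 7.32 in GW3965 and 6.58 in Dex+GW3965 livers. Cfd was called lower in Dex and in Dex+GW3965 livers. These shifts of other cell types go with the same groups as the results below, and their part in them was not tested.

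Against vehicle, 14 of the 30 members tested were higher and 12 lower in Dex livers, where 17.2% and 24.7% of all 16253 probe sets were (41.9% in either direction). In GW3965 livers 16 members were higher and 1, Cd36, was lower, against 5.93% and 14.5% of all probe sets (20.5% in either direction); without vehicle array b, 3 were lower. In Dex+GW3965 livers 13 were higher and 12 lower, against 15.6% and 21.2% (36.8% in either direction). The median difference over the 30 members was 0.00 with Dex, 0.14 with GW3965 and 0.03 with both, where the medians over all probe sets tested were -0.01, -0.03 and -0.02. The member that was not tested was Acot1, a cytosolic acyl-CoA thioesterase, which read 3.00 to 3.33 on the 8 arrays and was not above the background level of 5.49 on any. Group means spanned more than 1 log2 unit for 9 members and less than 0.2 for Acot1 (0.12), the isomerase Eci2 (0.13), the long chain dehydrogenase Acadl (0.19) and Ppara (0.17).

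**Figure D1:**
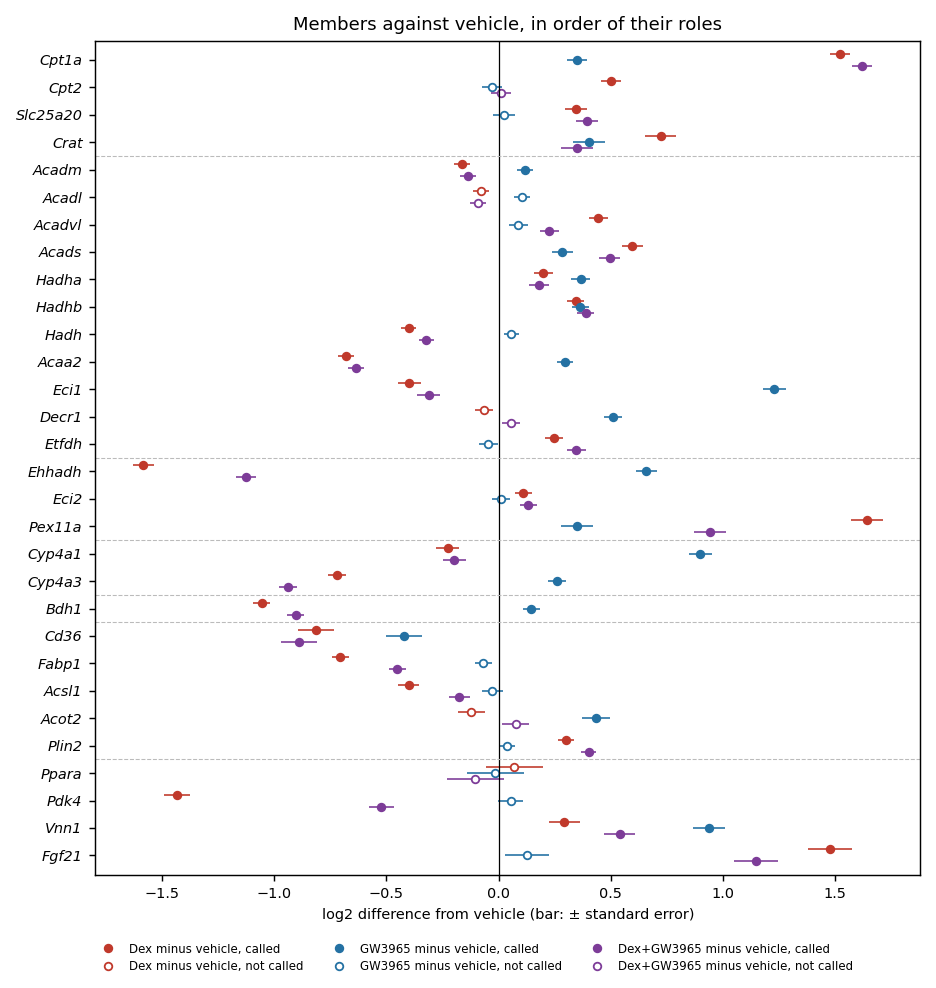
Log2 difference from vehicle of the 30 members tested, grouped by role, for Dex (red), GW3965 (blue) and Dex+GW3965 (purple); bars are standard errors of the limma fit, n = 2 arrays a group, filled points were called, and the 3 comparisons share the vehicle arrays. Dex points spread from -1.58 (Ehhadh) to 1.64 (Pex11a), while GW3965 points lie mostly at or above 0, up to 1.23 (Eci1).

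Genes of the carnitine route into mitochondria rose with Dex. All 4 were called higher in Dex livers, 2 in GW3965 livers and 3 in Dex+GW3965 livers. Cpt1a, the rate-limiting enzyme that loads fatty acids on carnitine, read 9.29 and 9.39 in vehicle livers, 10.87 and 10.85 in Dex, 9.72 and 9.65 in GW3965, and 10.96 on both Dex+GW3965 arrays. No group overlapped another, and the vehicle arrays were the lowest. The difference from vehicle was 1.52 ± 0.05 (SE) with Dex, a 2.87-fold rise (limma adjusted p = 1.67e-14), 0.35 ± 0.05 with GW3965 (limma adjusted p = 2.5e-05) and 1.62 ± 0.05 with both. A second probe set of Cpt1a gave 1.38, 0.29 and 1.44. Cpt2, which returns the chain to coenzyme A inside the mitochondrion, read 9.69 and 9.72 in vehicle, 10.20 and 10.21 in Dex, 9.67 and 9.68 in GW3965, and 9.76 and 9.68 in Dex+GW3965 livers. Only the Dex arrays stood apart, by 0.50 ± 0.04 over vehicle (limma adjusted p = 5.42e-08). With both compounds Cpt2 was 0.49 lower than with Dex alone (limma adjusted p = 2.67e-07). Slc25a20, the carrier that exchanges acylcarnitine for carnitine, was 0.35 higher with Dex and 0.39 higher with both, and 0.02 from vehicle with GW3965 (not called). Crat, which moves short acyl groups to carnitine, read 7.14 and 7.10 in vehicle, 7.84 and 7.85 in Dex, 7.55 and 7.50 in GW3965, and 7.47 and 7.48 in Dex+GW3965 livers. It was thus highest with Dex alone, and adding GW3965 to Dex lowered it by 0.37 ± 0.07 (limma adjusted p = 0.000781).

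The enzymes of mitochondrial beta oxidation did not move as one in Dex livers: of 11, 5 were higher, 4 lower and 2 not called. In GW3965 livers 7 were higher and none lower, and in Dex+GW3965 livers 5 were higher and 4 lower. The first step is shared by acyl-CoA dehydrogenases that differ in chain length. Acads, for short chains, read 9.71 and 9.81 in vehicle, 10.33 and 10.38 in Dex, 10.03 and 10.05 in GW3965, and 10.29 and 10.21 in Dex+GW3965 livers. It rose with each treatment, by 0.60 ± 0.05, 0.28 ± 0.05 and 0.50 ± 0.05 (limma adjusted p = 1.15e-08, 0.000323 and 1.7e-07). Acadvl, for very long chains, rose by 0.45 with Dex and 0.23 with both, and its 0.09 with GW3965 was not called. Acadm, for medium chains, was 0.16 lower with Dex, 0.12 higher with GW3965 and 0.14 lower with both; the GW3965 call was lost without vehicle array a (0.10), GW3965 array a (0.14) or GW3965 array b (0.10). Acadl, for long chains, gave -0.08, 0.10 and -0.09, none called. Etfdh, which hands the electrons of all these dehydrogenases to the respiratory chain, rose by 0.25 with Dex and 0.35 with both, with -0.05 for GW3965 (not called).

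The trifunctional protein carries the later steps for long chains, and its 2 subunit genes lie head to head. Hadhb, the beta subunit, read 11.07 and 11.13 in vehicle, 11.48 and 11.41 in Dex, and 11.47 to 11.49 on all 4 arrays with GW3965. The 6 treated arrays lay within 0.08 of each other and above both vehicle arrays, at 0.34, 0.36 and 0.39 over vehicle (each called). Hadha, the alpha subunit, read 10.48 and 10.60 in vehicle, 10.74 on both Dex arrays, 10.90 and 10.91 in GW3965, and 10.74 and 10.70 in Dex+GW3965 livers. Its rise was 0.20 ± 0.04 with Dex, 0.37 ± 0.04 with GW3965 and 0.18 ± 0.04 with both (limma adjusted p = 0.000982, 7.18e-06 and 0.00274). A second and dimmer probe set of Hadha gave 0.05, 0.04 and 0.22, none called, so the gene's change rests on its brightest probe set.

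Hadh and Acaa2, which act on shorter chains in the third and the last step, fell with Dex. Acaa2, the mitochondrial thiolase, read 12.54 and 12.63 in vehicle, 11.91 and 11.90 in Dex, 12.88 on both GW3965 arrays, and 11.97 and 11.93 in Dex+GW3965 livers. The 4 arrays with Dex lay below all 4 without it. Against vehicle it was 1.60-fold lower with Dex (-0.68 ± 0.04, limma adjusted p = 3.62e-11), 0.30 higher with GW3965 and 0.64 lower with both. A dimmer probe set of Acaa2 gave -0.35 (called), 0.04 and -0.22 (neither called). Hadh read 12.23 and 12.22 in vehicle and 11.81 and 11.84 in Dex livers, a fall by 0.40, and was 0.32 lower than vehicle with both compounds, while its 0.06 with GW3965 was not called.

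The auxiliary enzymes for unsaturated fatty acids were the members that GW3965 raised most in this organelle. Eci1, which shifts double bonds so that oleate and linoleate can be finished, read 10.23 and 10.42 in vehicle, 9.92 and 9.94 in Dex, 11.55 and 11.56 in GW3965, and 10.04 and 10.0005 in Dex+GW3965 livers. The GW3965 arrays stood more than 1 log2 unit above every other array. The difference from vehicle was 1.23 ± 0.05 with GW3965 (2.34-fold, limma adjusted p = 1.33e-11), -0.40 ± 0.05 with Dex and -0.31 ± 0.05 with both (limma adjusted p = 5.05e-06 and 0.000102). The second probe set of Eci1 was not above background, so 1 probe set carries this result. Decr1, the reductase for polyunsaturated chains, read 11.04 and 11.00 in vehicle, 10.95 and 10.97 in Dex, 11.54 and 11.53 in GW3965, and 11.13 and 11.03 in Dex+GW3965 livers. It likewise stood apart only in GW3965 livers, by 0.51 ± 0.04 (limma adjusted p = 5.42e-08), with -0.06 for Dex and 0.06 for both not called.

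**Figure D2:**
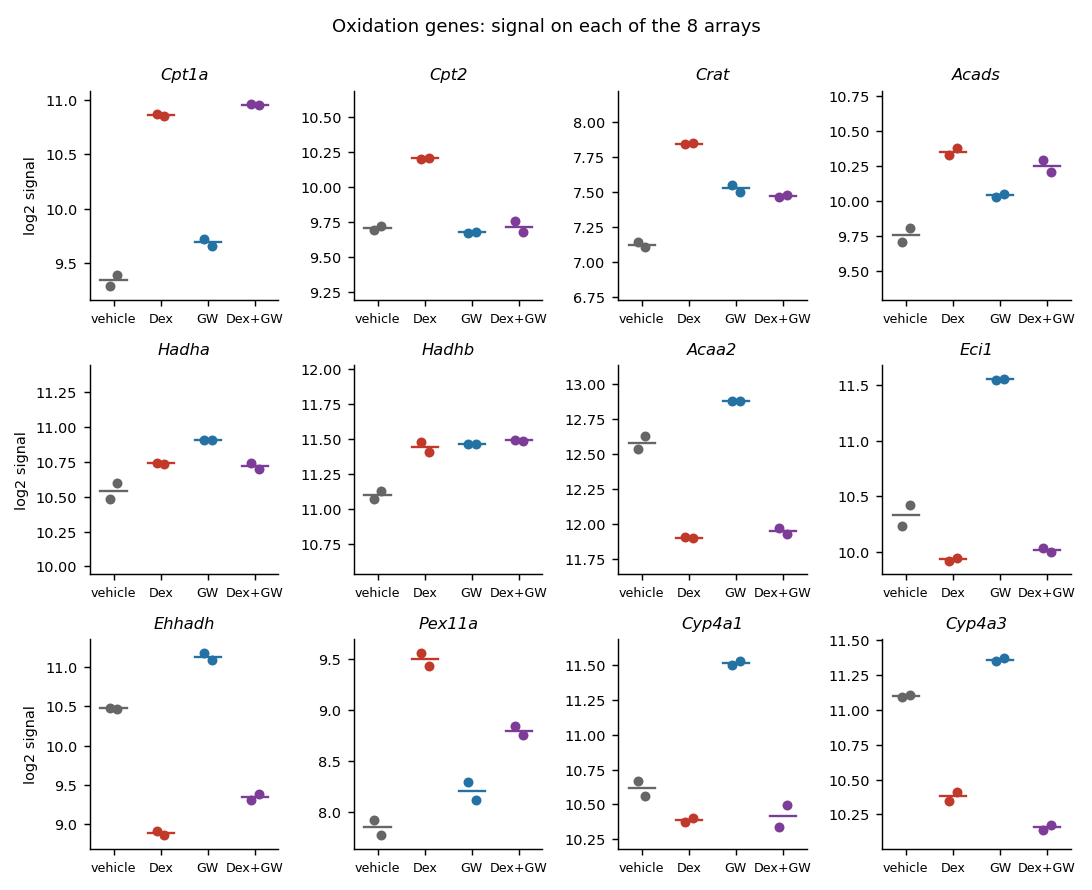
Log2 signal (vertical axis, each gene on its own scale that does not start at 0) of 12 oxidation genes on each of the 8 arrays; points are arrays and lines are group means, n = 2. Cpt1a is high on all 4 arrays that had Dex, Eci1 and Cyp4a1 are high only on the 2 GW3965 arrays, and Ehhadh, Acaa2 and Cyp4a3 are low on the 4 arrays that had Dex.

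In peroxisomes, Ehhadh had the largest fall and Pex11a the largest rise with Dex of the 30 members tested. Ehhadh, the bifunctional enzyme of the peroxisomal cycle, read 10.48 and 10.46 in vehicle, 8.91 and 8.86 in Dex, 11.17 and 11.09 in GW3965, and 9.31 and 9.38 in Dex+GW3965 livers. No group overlapped another, and it had the widest span of group means of the 31 members (2.24). It was 3.00-fold lower with Dex (-1.58 ± 0.05, limma adjusted p = 1.25e-14), 1.58-fold higher with GW3965 (limma adjusted p = 1.33e-08) and 2.18-fold lower with both. Pex11a, a membrane protein that drives the elongation and division of peroxisomes, read 7.93 and 7.78 in vehicle, 9.55 and 9.43 in Dex, 8.29 and 8.12 in GW3965, and 8.84 and 8.75 in Dex+GW3965 livers. The Dex arrays were highest and the Dex+GW3965 arrays lay between them and the others. It rose 3.12-fold with Dex (1.64 ± 0.07, limma adjusted p = 2.85e-12) and 1.92-fold with both. Its rise with GW3965, 0.35 ± 0.07, was not called without GW3965 array a (0.26), and the second probe set gave 0.07 there, against 1.74 and 0.78 for Dex and for both. Eci2, the peroxisomal counterpart of Eci1, was 0.11 higher with Dex and 0.13 higher with both, and 0.01 with GW3965 (not called). The Dex call of Eci2 was lost without vehicle array b (0.08), Dex array a (0.12) or Dex array b (0.10), and that with both without vehicle array b (0.10) or Dex+GW3965 array b (0.12).

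Both omega hydroxylases were lower with Dex and higher with GW3965. Cyp4a1 read 10.67 and 10.56 in vehicle, 10.37 and 10.40 in Dex, 11.50 and 11.53 in GW3965, and 10.34 and 10.50 in Dex+GW3965 livers. Only the GW3965 arrays were high, 1.87-fold over vehicle (0.90 ± 0.05, limma adjusted p = 5.67e-10). With Dex it was 0.23 lower, and with both 0.20 lower, a call that was lost without vehicle array a (-0.14) or Dex+GW3965 array a (-0.12). Cyp4a3 read 11.09 and 11.11 in vehicle, 10.35 and 10.41 in Dex, 11.35 and 11.37 in GW3965, and 10.14 and 10.18 in Dex+GW3965 livers. The 4 arrays with Dex lay below the other 4, with -0.72 ± 0.04 for Dex, 0.26 ± 0.04 for GW3965 and -0.94 ± 0.04 for both (limma adjusted p = 7.44e-11, 0.00012 and 2.48e-12). The genes lie 7828 bases apart on chromosome 5 and are near copies of each other and of Cyp4a2, so the probe sets may share signal.

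The ketone body gene of the group was low with Dex, whether or not GW3965 was given. Bdh1, which turns acetoacetate into beta-hydroxybutyrate, read 11.42 and 11.41 in vehicle, 10.34 and 10.38 in Dex, 11.60 and 11.53 in GW3965, and 10.52 and 10.50 in Dex+GW3965 livers. The 4 arrays with Dex lay about 1 log2 unit below the other 4. Against vehicle Bdh1 was 2.08-fold lower with Dex (-1.06 ± 0.04, limma adjusted p = 2.37e-13) and 1.87-fold lower with both. Its 0.15 ± 0.04 with GW3965 (limma adjusted p = 0.0114) was not called without GW3965 array a (0.12). The second probe set gave -1.13, 0.18 and -0.72, all called.

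Of 5 tested genes for uptake, binding, activation and storage of fatty acids, 3 were lower and 1 was higher in Dex livers, 1 higher and 1 lower in GW3965 livers, and 3 lower and 1 higher with both. Fabp1, the abundant liver fatty acid binding protein, read 14.15 and 14.04 in vehicle, 13.39 on both Dex arrays, 14.04 and 14.01 in GW3965, and 13.61 and 13.68 in Dex+GW3965 livers. It was 1.63-fold lower with Dex (-0.70 ± 0.04, limma adjusted p = 3.85e-11) and 1.37-fold lower with both. Without vehicle array b its -0.07 with GW3965 became -0.12 and was called. Cd36, a fatty acid receptor of the cell surface, read 7.51 and 7.52 in vehicle, 6.68 and 6.73 in Dex, 7.13 and 7.06 in GW3965, and 6.62 on both Dex+GW3965 arrays. The vehicle arrays were the highest, and the falls were 0.81, 0.42 and 0.89 (limma adjusted p = 1.97e-07, 0.00108 and 7.66e-08). Cd36 is also made by macrophages and endothelial cells, whose marker levels (Kupffer and sinusoidal endothelial cells) are given above.

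Acsl1, which joins fatty acids to coenzyme A, fell by 0.40 with Dex and by 0.17 with both. The call with both was lost without vehicle array a (-0.09) or Dex+GW3965 array a (-0.14), and without vehicle array b the value was -0.26. Its difference of -0.03 with GW3965 was not called on the brightest probe set, became a called -0.12 without vehicle array b, and was 0.14 (called) on a second probe set of nearly the same brightness, so that its direction is not settled. Acot2, a mitochondrial thioesterase that frees fatty acids from coenzyme A, read 8.19 and 8.22 in vehicle, 8.05 and 8.12 in Dex, 8.66 and 8.62 in GW3965, and 8.23 and 8.33 in Dex+GW3965 livers. It rose with GW3965 by 0.43 ± 0.06 (limma adjusted p = 5.22e-05), and -0.12 with Dex and 0.08 with both were not called. A dimmer probe set of Acot2 gave 0.05 with Dex (not called), 0.77 with GW3965 (called) and 0.38 with both (called). The dimmest gave -0.08, 0.30 and -0.02, none called, so its change with both compounds is not settled. Plin2, a coat protein of lipid droplets, read 11.79 and 11.81 in vehicle, 12.10 on both Dex arrays, 11.82 and 11.86 in GW3965, and 12.22 and 12.18 in Dex+GW3965 livers. The 4 arrays with Dex were above the others, by 0.30 and 0.40 over vehicle, while a dimmer probe set of Plin2 gave -0.11 and -0.17, neither called.

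The receptor itself did not pass the test in any comparison. Ppara read 5.81 and 6.19 in vehicle, 5.95 and 6.19 in Dex, 5.95 and 6.02 in GW3965, and 5.88 and 5.92 in Dex+GW3965 livers. These signals were within 1 log2 unit of background, and the groups overlapped. Differences from vehicle were 0.07, -0.01 and -0.10, each ± 0.13, and the spread between the vehicle arrays was larger than each.

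Further genes known as PPAR alpha targets went different ways. Pdk4, the kinase that shuts off pyruvate dehydrogenase and so spares glucose, read 9.08 and 9.11 in vehicle, 7.61 and 7.72 in Dex, 9.16 and 9.14 in GW3965, and 8.58 and 8.57 in Dex+GW3965 livers. It was 2.70-fold lower with Dex (-1.43 ± 0.06, limma adjusted p = 6.63e-13) and 1.44-fold lower with both, so that adding GW3965 to Dex raised it by 0.91 ± 0.06 (limma adjusted p = 1.75e-09). The second probe set of Pdk4 gave -1.01 and -0.30 against vehicle and 0.70 for that rise. Vnn1, a pantetheinase that feeds cysteamine and coenzyme A turnover, read 7.52 and 7.71 in vehicle, 7.89 and 7.93 in Dex, 8.59 and 8.51 in GW3965, and 8.17 and 8.14 in Dex+GW3965 livers. Each treatment raised it, most of all GW3965, by 0.94 ± 0.07 (limma adjusted p = 2.63e-08), with 0.29 for Dex and 0.54 for both. Fgf21, a hormone that the fasted liver secretes, read 6.19 and 6.16 in vehicle, 7.71 and 7.59 in Dex, 6.15 and 6.45 in GW3965, and 7.32 and 7.33 in Dex+GW3965 livers. It rose 2.78-fold with Dex (1.48 ± 0.10, limma adjusted p = 9.93e-10) and 2.22-fold with both, and GW3965 arrays overlapped the vehicle ones.

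**Figure D3:**
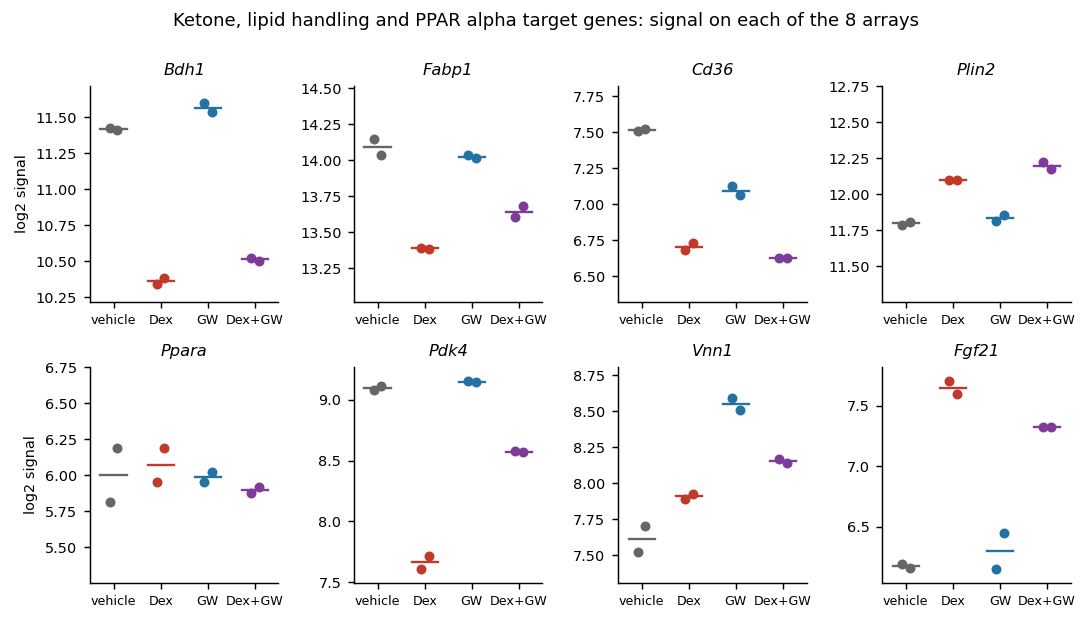
Log2 signal (vertical axis, each gene on its own scale that does not start at 0) of 8 ketone, lipid handling and PPAR alpha target genes on each of the 8 arrays; points are arrays and lines are group means, n = 2. Pdk4 falls to 7.61 and 7.72 with Dex and returns to 8.58 and 8.57 with both compounds, Fgf21 is high with Dex, and the groups of Ppara overlap.

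The effect of Dex was then compared between livers without GW3965 (Dex against vehicle) and livers with it (Dex+GW3965 against GW3965), which share no array. With GW3965 present, Dex left 9 members higher and 17 lower, against 19% and 16.8% of all probe sets (35.8% in either direction), with a median difference of -0.19. Of the 26 called in each setting, 21 were called in the same direction in both, 80.8% of either list, where the same count over all probe sets was 51.7% of those called without GW3965 and 60.4% of those called with it. These 21 comprise 9 that rose (Cpt1a, Slc25a20, Acadvl, Acads, Etfdh, Eci2, Pex11a, Plin2 and Fgf21) and 12 that fell (Acadm, Hadh, Acaa2, Eci1, Ehhadh, Cyp4a1, Cyp4a3, Bdh1, Cd36, Fabp1, Acsl1 and Pdk4). Hadha and Vnn1 turned round: Dex raised Hadha by 0.20 without GW3965 and lowered it by 0.19 with it, and moved Vnn1 by 0.29 and -0.40. A second and dimmer probe set of Hadha gave 0.05 and 0.18, neither called, so the turn of Hadha rests on its brightest probe set. Of the 21, 3 lost their call with GW3965 present when an array was left out. Acadvl (0.14) was 0.11 without GW3965 array b or Dex+GW3965 array a, Eci2 (0.12) was 0.10 without GW3965 array b and 0.11 without Dex+GW3965 array b, and Acsl1 (-0.15) was -0.11 without GW3965 array a and -0.12 without Dex+GW3965 array a.

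The largest fall with Dex in livers that had GW3965 was that of Ehhadh, 3.44-fold (-1.78 ± 0.05, limma adjusted p = 3.51e-15). Eci1 followed with 2.91-fold, then Cyp4a3 with 2.30-fold, Cyp4a1 with 2.14-fold, Bdh1 with 2.07-fold and Acaa2 with 1.91-fold, all called. Cpt1a rose 2.41-fold, Fgf21 2.03-fold and Pex11a 1.51-fold in the same comparison. For Eci1 and Cyp4a1 the falls were larger than the -0.40 and -0.23 seen without GW3965; the GW3965 livers had the highest level of both genes.

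The effect of GW3965 was compared in the same way, between livers without Dex (GW3965 against vehicle) and livers with it (Dex+GW3965 against Dex). In Dex livers 9 members were higher with GW3965 and 6 lower, against 13.4% and 9.38% of all probe sets (22.8% in either direction), with a median of 0.05. Of the 17 called without Dex and the 15 called with it, 5 moved in the same direction in both, 29.4% and 33.3% of the 2 lists, where 21.9% and 19.7% of all called probe sets did. They were Decr1 (0.51 and 0.12), Ehhadh (0.66 and 0.46), Bdh1 (0.15 and 0.15), Acot2 (0.43 and 0.20) and Vnn1 (0.94 and 0.25). The next brightest probe sets gave 0.18 and 0.41 for Bdh1 and 0.77 and 0.33 for Acot2, all called. The dimmest probe set of Acot2 gave 0.30 and 0.06, neither called. Crat, Pex11a and Cyp4a3 moved in opposite directions, up by 0.40, 0.35 and 0.26 without Dex and down by 0.37, 0.70 and 0.22 with it. The second probe set of Pex11a gave 0.07 (not called) and -0.97 (called), so its rise without Dex is not settled. The difference was smaller in size with Dex present for 15 of the 17 members called without it. The same was true of 2634 of the 3325 probe sets called without Dex. Over all 30 members tested it was smaller for 16. Members picked for a change in 1 setting tend to show less of it in another, so the count of 15 says little about Dex. Eci1 rose by 1.23 without Dex and 0.09 with it (not called), and Cyp4a1 by 0.90 and 0.03 (not called).

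The count of 9 higher members in Dex livers was sensitive to single arrays, with 4 left without Dex array a, 5 without Dex array b and 5 without Dex+GW3965 array a. Of the 9, Ehhadh, Fabp1, Acsl1 and Pdk4 kept their call when any 1 array was left out. The others lost theirs, with Decr1 at 0.07 and Acot2 at 0.17 without Dex+GW3965 array a and Dex array a, respectively, Plin2 at 0.08 without Dex+GW3965 array a, Bdh1 at 0.13 and Vnn1 at 0.23 without Dex array a. On the lower side, the fall of Fgf21 by 0.33 became -0.27 and was not called without Dex array a, while Cpt2, Crat, Acadvl, Pex11a and Cyp4a3 kept theirs.

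**Figure D4:**
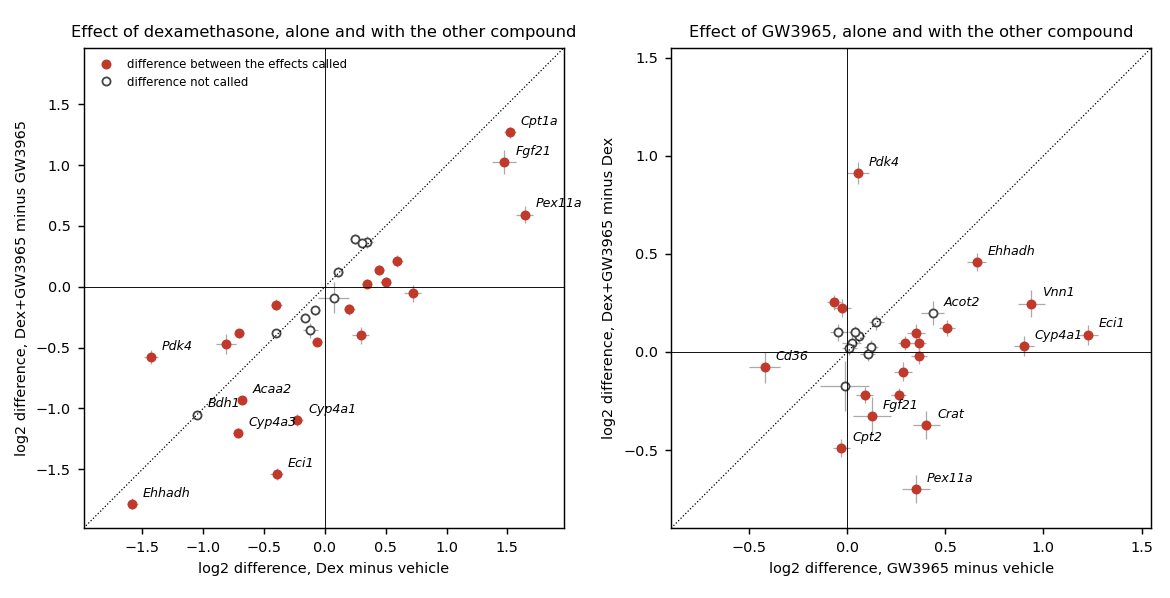
Log2 difference made by Dex (left) and by GW3965 (right) in livers without the other compound (horizontal axis) and with it (vertical axis) for the 30 members tested; bars are standard errors, n = 2 arrays a group, the dotted line marks equal effects, and filled points are members whose effects differed by the test of the interaction. For Dex, Eci1, Pex11a, Cyp4a1 and Crat lie furthest below the line and Pdk4 furthest above it. For GW3965, 15 of the 17 members called without Dex lie closer to 0 on the vertical than on the horizontal axis. Of all 3325 probe sets called without Dex (not drawn), 2634 did so too. Pdk4 stands above the line for GW3965 (0.05 and 0.91).

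The difference between the Dex effect with and without GW3965 was itself tested as the interaction. It was called for 20 of the 30 members, 4 above and 16 below 0, against 15.8% and 6.93% of all probe sets (22.8% in either direction). The median over members was -0.24, where that over all probe sets was 0.03. Below 0, the level with both compounds was lower than the sum of the separate changes. On their brightest probe sets, all 7 called enzymes of mitochondrial beta oxidation were on that side. So were Cpt1a, Cpt2, Crat, Ehhadh, Pex11a, both omega hydroxylases, Vnn1 and Fgf21. The dimmer second probe sets of Hadha and Acaa2 gave 0.13 and 0.08, on the other side and not called. That of Cpt1a gave -0.22 (not called) and that of Pex11a -1.04 (called). The largest interactions below 0 on the brightest probe sets were Eci1 (-1.14 ± 0.07, limma adjusted p = 3.5e-09), Pex11a (-1.05 ± 0.10, limma adjusted p = 7.22e-07) and Cyp4a1 (-0.87 ± 0.07, limma adjusted p = 8.08e-08). Above 0 were Pdk4 (0.86 ± 0.08, limma adjusted p = 4.48e-07), Cd36, Fabp1 and Acsl1. Without GW3965 array b, 2 rather than 4 were called above 0. The call of Cd36 was lost whichever of the 8 arrays was left out (0.31 without GW3965 array b), those of Ehhadh and Fgf21 with several of them (-0.16 for Ehhadh without GW3965 array a and -0.31 for Fgf21 without GW3965 array b), and that of Cpt1a was lost without GW3965 array a (-0.22). Acsl1, at 0.25, was 0.17 without vehicle array a and not called without GW3965 array b (0.22), and its second probe set gave 0.04 (not called). On its brightest probe set Bdh1 showed no interaction (0.01 ± 0.05), and its fall with Dex was 1.06 without and 1.05 with GW3965. The other probe set of Bdh1 gave Dex effects of -1.13 and -0.89 and a called interaction of 0.24 (limma adjusted p = 0.0153), so its interaction is not settled. That of Acot2 was not called on the brightest probe set (-0.24) or the dimmest (-0.24). On the remaining probe set of Acot2 it was -0.44 (limma adjusted p = 0.0109).

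A list of 147 other genes of the pathway was described in the same way; 129 had a probe set and 115 passed the filter on dim signals. With Dex 44 were higher and 36 lower, with GW3965 14 and 27, and with both 40 and 29. Over all probe sets tested, 17.2% were higher and 24.7% lower with Dex, 5.93% and 14.5% with GW3965, and 15.6% and 21.2% with both. The counts of each list below stand against these same shares, and some are near them. Among 20 other genes of mitochondrial oxidation, 11 were higher and 2 lower with Dex, and 1 was higher and 4 lower with GW3965, whereas 7 of the 11 members of that role were higher with GW3965. Pcca, a subunit of the carboxylase that deals with the last 3 carbons of odd chains, rose by 1.05 with Dex and 1.07 with both, and Mcee, an epimerase of the next steps, by 0.79 and 0.62.

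Of 29 other peroxisomal genes, 8 were higher and 11 lower with Dex, and 7 higher and 1 lower with GW3965. The enzymes of alpha oxidation, which removes 1 carbon from branched chains, rose with Dex: Hacl1 read 10.23 and 10.22 in vehicle, 11.78 and 11.73 in Dex, 10.15 and 10.09 in GW3965, and 11.67 and 11.75 in Dex+GW3965 livers, and Phyh was 1.18 higher with Dex and 0.95 higher with both. Crot, which makes octanoylcarnitine for export to mitochondria, read 10.58 and 10.30 in vehicle, 8.80 and 8.73 in Dex, 11.17 and 11.05 in GW3965, and 9.15 and 9.33 in Dex+GW3965 livers. Its groups stood in the same order as those of Ehhadh, with -1.68, 0.67 and -1.20 against vehicle, all called. Acox2, the oxidase for branched chains and bile acid intermediates, fell with every treatment, by 1.04, 0.90 and 1.10. Pxmp4, a peroxisomal membrane protein, rose with each compound alone, by 0.72 and 1.02, but was 0.20 from vehicle with both (not called). Amacr, a racemase for branched chains, fell by 0.50 with Dex, rose by 0.40 with GW3965 and rose by 0.31 with both.

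Among 10 other genes of omega oxidation, 3 were higher and 6 lower with Dex, and 3 higher and 4 lower with GW3965. Cyp4a8 went against Cyp4a1 and Cyp4a3. It read 6.92 and 6.91 in vehicle, 9.35 on both Dex arrays, 6.10 and 6.08 in GW3965, and 8.87 and 8.77 in Dex+GW3965 livers, a rise of 2.44 with Dex and a fall by 0.83 with GW3965. Adh4, an alcohol dehydrogenase that accepts omega-hydroxy fatty acids, read 6.86 and 6.80 in vehicle and 8.38 and 8.42 in GW3965 livers and was 6.18 to 6.73 on the 4 arrays with Dex. Of 4 other ketone body genes tested, 3 were lower with Dex and 3 lower with GW3965. Slc16a1, a monocarboxylate carrier that can export ketone bodies, was 0.65 lower with Dex, 0.16 lower with GW3965 and 0.37 lower with both.

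In the list of uptake, activation and lipolysis (31 tested), 11 were higher and 11 lower with Dex and 3 higher and 10 lower with GW3965. Pnpla2, the first lipase of lipid droplets, read 7.56 and 7.59 in vehicle, 9.01 and 9.13 in Dex, 7.72 and 7.78 in GW3965, and 8.71 and 8.66 in Dex+GW3965 livers. The droplet protein Cidea rose by 3.39 with Dex, 0.85 with GW3965 and 3.14 with both, and the thioesterase Acot13 by 0.98 with Dex. Fabp7, another fatty acid binding protein, fell by 1.92 with Dex and by 0.61 with both, so that GW3965 raised it by 1.31 in Dex livers. Fabp5 was lowest in GW3965 livers, 0.85 below vehicle. The acyl-CoA synthetases Acsl3 and Acsl5 fell by 1.02 and 0.84 with Dex, on the same side as Acsl1. Not every synthetase of that family in the list fell with Dex. Pnpla3, a lipid droplet protein that feeding induces, fell with Dex to a signal not above background, with a log2 difference of -1.56 or below.

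Of 21 regulators tested, 11 were higher and 3 lower with Dex and none higher and 5 lower with GW3965. Lpin1, a phosphatidate phosphatase that also acts with PPAR alpha as a coactivator, read 8.43 and 8.49 in vehicle, 11.50 and 11.53 in Dex, 8.53 and 8.55 in GW3965, and 9.93 and 9.99 in Dex+GW3965 livers. GW3965 thus lowered it by 1.55 in Dex livers and left it within 0.08 of vehicle without Dex (not called). Ppargc1a, the coactivator PGC-1 alpha, read 5.75 and 5.50 in vehicle, 6.65 and 6.46 in Dex, 5.46 and 5.80 in GW3965, and 5.83 and 5.71 in Dex+GW3965 livers, close to background outside the Dex group. Acaca, whose product malonyl-CoA inhibits carnitine palmitoyltransferase 1, rose by 1.62 with Dex, fell by 0.53 with GW3965 and rose by 1.32 with both. Pdk1, a kinase of pyruvate dehydrogenase like Pdk4, rose by 0.85 with Dex where Pdk4 fell by 1.43.

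**Figure D5:**
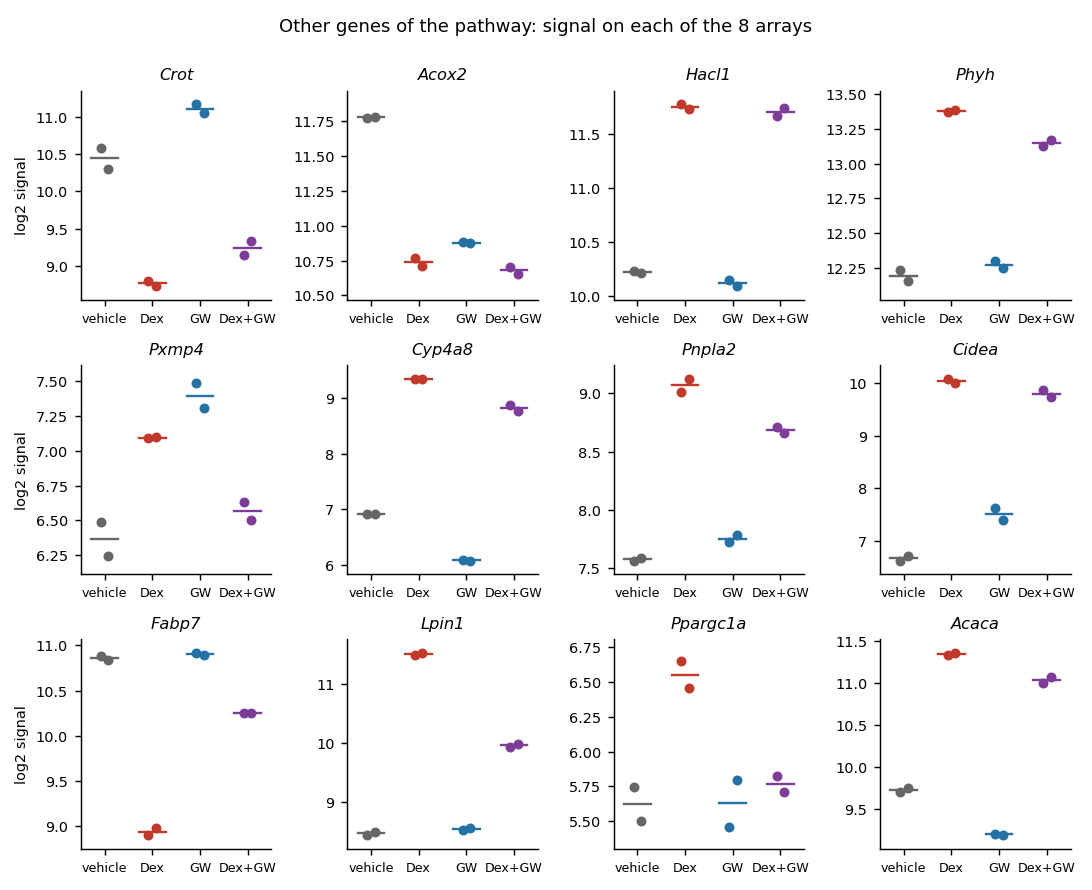
Log2 signal (vertical axis, each gene on its own scale that does not start at 0) of 12 other genes of the pathway on each of the 8 arrays; points are arrays and lines are group means, n = 2. Hacl1, Phyh, Cyp4a8, Pnpla2, Cidea and Acaca are high on the 4 arrays with Dex, Crot is low on them, and Lpin1 with both compounds lies between Dex and the rest.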

How the data were processed

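Total RNA (5 micrograms a sample) was hybridized to 1-colour arrays, and the deposited log2 signals were used as given. Per the labels and methods, the authors re-mapped probes to UniGene clusters, used perfect match probes only and subtracted background by the MAS method; MAS5 is the tool listed in the submitters' processing notes, with no version. Array medians of the deposited log2 signals agreed within 0.0357 and values ran from 2.50 to 14.9, so no further normalization was applied. After 57 control probe sets were removed, 31042 remained, of which 20826 had 1 gene symbol in the platform annotation, 436 several and 9780 none, and no gene was named from a probe set with several. A probe set was tested when it was above its own array's median on at least 2 arrays (16253, 52.4%). Group means were fitted over the 8 arrays with limma 3.58.1 (R 4.3.3, eBayes with an intensity trend, 4 residual and 12.7 prior degrees of freedom), p-values were Benjamini-Hochberg adjusted over all probe sets tested, and a call needed an adjusted p under 0.05. The script was tested on simulated data. A group mean under 5.49, the mean of the array medians, counted as not above background and gave a bound. An array has no read depth, and precision depends at least on the number of arrays and on the signal level of the probe set. Contrasts compared each treatment with vehicle, the combination with each compound alone, and the 2 Dex effects (interaction). All members are described. Other pathway genes were named from those with large called changes in their list, and some with changes as large are not named. The members and lists were chosen with earlier results of these data known. Alternatives were quantile normalization, 2 other filters, no intensity trend, the array letter as a block, all probe sets of a gene averaged, the methods' t-test and each array left out in turn. Promoters came from RefSeq (GRCr8); motif shares were counted over windows of 250 bases before to 50 after the start on both strands.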

Additional observations from a re-analysis of the deposited data

Results flagged for a closer look

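The Dex effect on 20 members differed between livers with and without GW3965 by the limma test of the interaction. Given here is the log2 difference between the 2 effects on the brightest probe set of each gene. In the transport genes it was -0.25 for Cpt1a, -0.46 for Cpt2 and -0.78 for Crat. In mitochondrial oxidation it was -0.31 for Acadvl, -0.38 for Acads, -0.39 for Hadha, -0.32 for Hadhb, -0.25 for Acaa2, -1.14 for Eci1 and -0.39 for Decr1. In peroxisomal and omega oxidation it was -0.20 for Ehhadh, -1.05 for Pex11a, -0.87 for Cyp4a1 and -0.48 for Cyp4a3. In fatty acid handling it was 0.34 for Cd36, 0.32 for Fabp1 and 0.25 for Acsl1, and among receptor targets 0.86 for Pdk4, -0.69 for Vnn1 and -0.45 for Fgf21.

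Among the other pathway genes named, the interaction was called for 18. It was 0.84 for Acox2, 0.41 for Amacr, -0.31 for Phyh and -1.55 for Pxmp4 among peroxisomal genes, and 0.30 for Cyp4a8 and -1.73 for Adh4 in omega oxidation. It was 0.43 for Slc16a1, 0.42 for Acsl3, 0.19 for Acsl5, 0.81 for Fabp5 and 1.27 for Fabp7, and -0.56 for Pnpla2 and -1.10 for Cidea on lipid droplets. The 0.69 of Pnpla3 rests on signals that were not above background in either group with Dex. For regulators it was -0.78 for Ppargc1a, -1.63 for Lpin1, 0.39 for Pdk1 and 0.23 for Acaca.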

How the results depend on the processing

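Of the 129 member differences called by limma, 93 kept their direction and call under all 14 other settings of that model. The methods' t-test at the methods' threshold called 8 members higher in Dex+GW3965 against vehicle (13 by limma) and 11 lower in Dex+GW3965 against GW3965 (17 by limma). After Benjamini-Hochberg adjustment that test, which has 2 values a gene, called 0 members in either direction in every comparison except 1 lower in Dex+GW3965 against vehicle. Without the intensity trend 3 rather than 9 members were higher in Dex+GW3965 against Dex; the cause was not tested. Leaving out 1 array at a time, where the lone array is assumed to vary like the other groups, gave 1 to 3 members lower with GW3965 against vehicle, 4 to 9 higher in Dex+GW3965 against Dex and 2 to 4 interactions above 0.

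The labels do not say whether the letters a and b pair the arrays. Deviations of arrays with the same letter correlated at -0.232 to 0.083 between groups. With 2 arrays a group such weak values cannot exclude a pairing. With the letter as a replicate block, 8 rather than 9 members were higher in Dex+GW3965 against Dex and 3 rather than 4 interactions lay above 0, with Plin2 and Cd36 no longer called, and no other member call changed.

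Values that changed sign had not been called, except the interaction of Acsl1, which went from 0.25 to -0.032 when its probe sets, 1 of them not above background, were averaged. Averaging also gave 0.12 (Acsl1) and -0.053 (Plin2) for GW3965 against vehicle and 0.025 (Hadha) for Dex+GW3965 against Dex. Quantile normalization gave 0.053 (Cpt2), 0.027 (Etfdh) and 0.0099 (Acsl1) for GW3965 against vehicle, -0.011 (Eci2) and -0.020 (Cyp4a1) for Dex+GW3965 against Dex, -0.030 (Cpt2) and -0.053 (Hadhb) for Dex+GW3965 against GW3965, and interactions of -0.073 (Slc25a20), -0.043 (Hadh), -0.12 (Eci2), -0.077 (Bdh1) and -0.0025 (Plin2).

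With 1 array left out, Ppara ranged from -0.12 to 0.26 with Dex, -0.20 to 0.17 with GW3965, -0.29 to 0.084 with both and -0.35 to 0.027 for the interaction. For GW3965 against vehicle Eci2 ranged from -0.022 to 0.043, Acsl1 from -0.12 to 0.061 and Fgf21 from -0.021 to 0.27. Cpt2 ranged from -0.029 to 0.049 with both against vehicle and from -0.00019 to 0.079 for Dex+GW3965 against GW3965. For Dex+GW3965 against Dex the ranges were -0.0039 to 0.097 (Slc25a20), -0.0092 to 0.059 (Acadm), -0.049 to 0.026 (Acadl) and -0.050 to 0.11 (Cyp4a1). Interactions ranged from -0.027 to 0.074 (Slc25a20), -0.00074 to 0.044 (Hadh), -0.021 to 0.045 (Eci2) and -0.026 to 0.036 (Bdh1).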

Other observations

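Probe sets that carry more than 1 gene symbol were not used above and are given without a test. The pair Acaa1a and Acaa1b, thiolases of peroxisomal oxidation, was -0.43 in log2 with Dex, 0.36 with GW3965 and -0.52 with both against vehicle. The pair Cyp4a2 and Cyp4a3 gave -0.79, 0.51 and -0.70, and 0.09 for Dex+GW3965 against Dex, where Cyp4a3 alone gave -0.22. A probe set for Cd36 and Cd36l1 gave -0.65, -0.26 and -0.76 against vehicle. Values for Acot1 and Acot2 together were -0.06, 0.12 and -0.15. A probe set shared by Eci2 and Eci3 gave -0.16, -0.35 and 0.09, where that of Eci2 alone gave 0.11, 0.01 and 0.13.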
